A study of Mus musculus with 8 samples.

Results

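Glucocorticoids are adrenal steroids whose release rises with fasting, stress and the daily cycle. Inside the cell they bind the glucocorticoid receptor, which sheds its chaperones, enters the nucleus and switches on genes that are used as a readout of steroid action. In fat the enzyme HSD11B1 can also make the active steroid locally from an inert precursor. The set described here holds 8 such genes: Zbtb16, Fkbp5, Tsc22d3, Sgk1, Mt1 and Mt2 as known targets, Nr3c1 as the gene of the receptor, and Hsd11b1. They were chosen from a list of glucocorticoid-linked genes with earlier results of these arrays known, on the levels in the 8 arrays. Their pattern over the arrays and their likeness to Zbtb16 are therefore given as a description, with no test. The tests between the genotypes given below read these same levels. The set is 8 of 22180 genes that have a probe set naming 1 gene, and each member had 1 such probe set. All 8 were above the dim limit (2.88 log2, the level under which most olfactory and vomeronasal receptor probe sets lie) in all 8 arrays. They are among the 13223 genes tested.

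The arrays measured RNA of brown adipose tissue, the heat-producing fat, from male mice of the C57BL/6J strain aged 14 weeks and kept on normal chow. The mice had been fasted overnight and fed chow again for 1 h. There were 3 wild-type mice (WT) and 5 Abhd15 KO mice, with 1 array for each, and 200 ng of RNA went into the labelling. ABHD15 is a hydrolase-like protein of fat cells, and the KO lacks its gene per the labels, which give neither the deleted part nor the way the line was made. Abhd15 did not read lower in the KO arrays (6.12 ± 0.27 log2, SD, n = 5) than in WT (6.01 ± 0.19, SD, n = 3), so every direction rests on the labels, and those arrays are called KO-labelled. Brown fat markers were present, with 8 of 8 tested and a list mean between 9.53 and 10.34 log2 in the 8 arrays. In bulk tissue, fewer cells of a type and less RNA per cell cannot be told apart. WT replicate 2 and Abhd15 KO replicate 1 stood apart from the other 6 arrays in several genes, among them Angptl8, a feeding-induced secreted protein, which read 7.95 and 7.90 there and 10.42 to 10.81 elsewhere. The correlations of the 8 genes with Zbtb16 and with Fkbp5 are therefore also given without that pair.

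The genes did not rise and fall as 1 block. Zbtb16, Sgk1 and Tsc22d3 each peaked in the same pair of mice, WT replicate 2 with Abhd15 KO replicate 1, where Hsd11b1 was lowest. Fkbp5, Mt1 and Mt2 were highest in other arrays, and WT replicate 2 was among their 3 lowest. Nr3c1 ran opposite to Fkbp5. In the other 6 arrays Sgk1 had a similar r with Zbtb16 and with Fkbp5 (0.62 and 0.59), and Tsc22d3 had −0.27 and 0.52. None of the 8 differed between the genotypes beyond the spread between mice.

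Zbtb16 encodes PLZF, a zinc finger transcription factor that glucocorticoids induce in many cell types and that also marks innate-like T cells. It read 8.05, 9.26 and 7.999 log2 across WT replicates 1 to 3. Its KO-labelled values were 9.35, 8.50, 8.38, 7.22 and 7.26 for replicates 1 to 5. WT replicate 2 and Abhd15 KO replicate 1 were high, Abhd15 KO replicates 4 and 5 were low, and the groups overlapped. The gap of 2.13 log2 between the highest and the lowest array is a 4.39-fold difference, and 1.35% of the tested genes had a wider range. WT averaged 8.44 ± 0.71 (SD, n = 3) and the KO-labelled mice 8.14 ± 0.90 (SD, n = 5). The difference of −0.29 (95% confidence interval −1.43 to 0.84) was smaller than the spread in either group (exact two-sided permutation p = 0.643). Of 10 T, NK and innate lymphoid cell markers, Cd3d, Il7r and Klrb1c did not pass the dim filter. The mean of the 7 that did lay between 2.96 and 3.31 in WT and between 2.85 and 3.41 in the KO-labelled arrays. Some of the 7 rose clear of the limit in single arrays: Cd3e read 3.44 to 4.51 and was highest in Abhd15 KO replicate 1, while Tbx21 reached 4.19, Il2rb 4.03 and Cd3g 3.92. The mean of the 7 had an r of −0.36 with Zbtb16 and −0.92 without the pair, and Cd3e had 0.47 and −0.42. The part of these cells in the Zbtb16 level was not tested. No RefSeq start of Zbtb16 or Nr3c1 was used here.

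**Figure D1:**
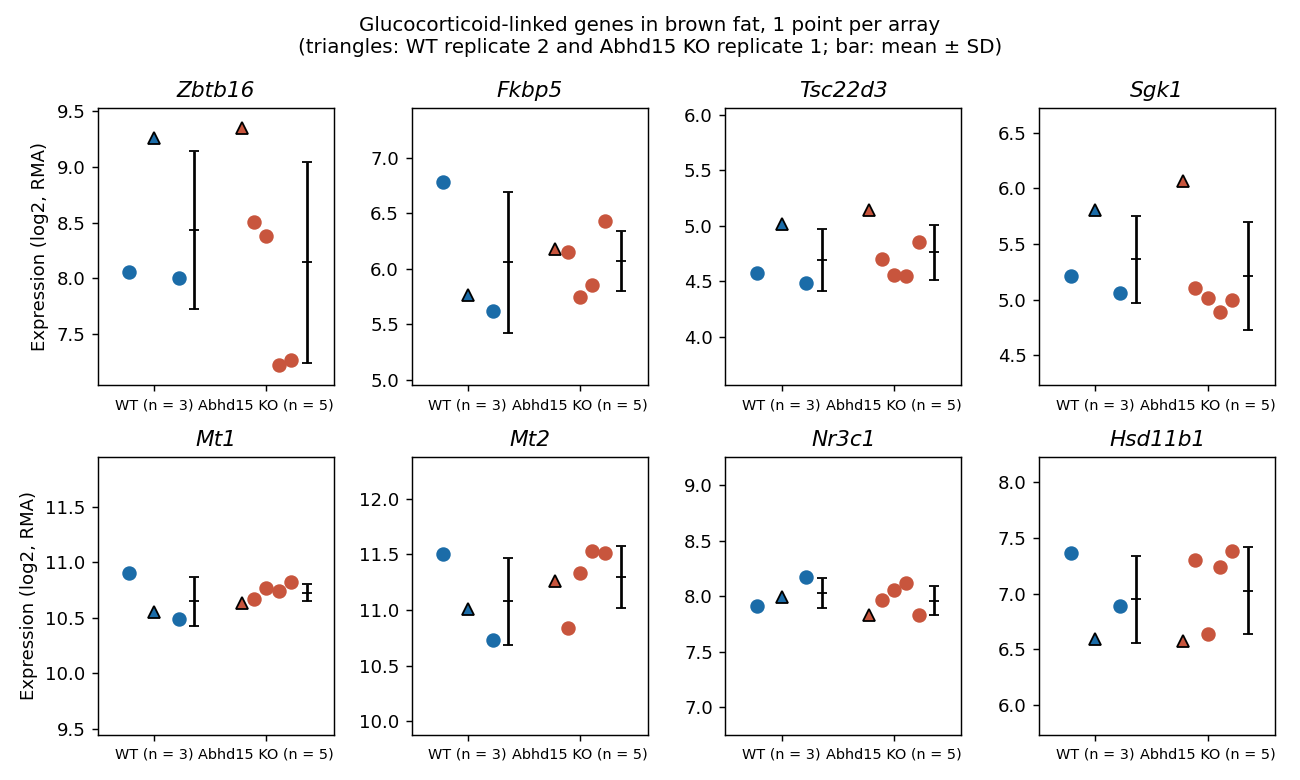
Expression of the 8 genes (y axis, RMA log2 value, all panels spanning the same number of log2 units) in WT and Abhd15 KO arrays, 1 point per array, with the mean ± SD to the right of each group. Triangles mark WT replicate 2 and Abhd15 KO replicate 1: they are the highest arrays for Zbtb16, Tsc22d3 and Sgk1 and the lowest for Hsd11b1, and the groups overlap in all 8 genes.

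Of the 7 other members Sgk1 followed Zbtb16 most closely. It encodes a kinase of ion transport and cell survival, and is induced by glucocorticoids and mineralocorticoids within hours. It read 5.21, 5.81 and 5.06 log2 across WT replicates 1 to 3. The KO-labelled mice gave 6.07, 5.10, 5.01, 4.89 and 5.00 for replicates 1 to 5. The same 2 arrays were high as for Zbtb16, the other 6 lay within 4.89 to 5.21, and the groups overlapped. The group difference was −0.15 (−0.78 to 0.49, exact permutation p = 0.679).

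Over the 8 arrays Sgk1 had a Pearson r of 0.87 and a Spearman rho of 0.88 with Zbtb16, and 1.84% of the tested genes had a higher r. Without WT replicate 2 and Abhd15 KO replicate 1, which are also the arrays farthest from the median of Zbtb16, r was 0.62 over the other 6. Leaving out any single array gave 0.82 to 0.91.

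RefSeq lists 6 start sites for Sgk1 on assembly GRCm38.p6, and the 250 bases before 1 of them hold a complete glucocorticoid response element. The window is shown because this full palindrome is rare. The motif searched was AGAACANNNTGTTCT on both strands, which read alike. It occurs in 3 of 32851 windows of that length in the table (0.00913%). The match lies on chromosome 10, chr10:21993701-21993715, 189 to 175 bases before that start, and is in capitals below (plus strand, chr10:21993640-21993889).
Sgk1: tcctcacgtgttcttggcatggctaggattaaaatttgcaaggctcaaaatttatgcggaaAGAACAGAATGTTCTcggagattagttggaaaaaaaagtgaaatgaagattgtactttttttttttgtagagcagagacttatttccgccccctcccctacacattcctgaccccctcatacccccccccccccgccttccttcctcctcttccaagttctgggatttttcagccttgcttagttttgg
The shorter element, AGAACA or its reverse complement, is within the full motif and occurs in 16.1% of all windows. It was found in 3 of the 6 Sgk1 windows, in 1 of 3 for Tsc22d3, and in none of the windows of Fkbp5, Mt1, Mt2 and Hsd11b1, 1 for each gene. A match is a description of these letters, and the probe set does not tell which Sgk1 start was used.

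Tsc22d3 encodes GILZ, a small leucine zipper protein through which glucocorticoids dampen inflammation. It read 4.58, 5.02 and 4.49 log2 across WT replicates 1 to 3. Under the KO label the values were 5.14, 4.70, 4.56, 4.55 and 4.86 for replicates 1 to 5. WT replicate 2 and Abhd15 KO replicate 1 were again the highest, but Abhd15 KO replicate 5, which was low in Zbtb16, came next, and the groups overlapped. The range of 0.66 log2 was ordinary, since 51.7% of the tested genes had a wider one. Tsc22d3 had an r of 0.64 and a rho of 0.69 with Zbtb16, but without the pair of arrays r was −0.27. Its likeness to Zbtb16 thus rested on those 2 arrays. The same held for Tsc22d3 and Sgk1, with r = 0.86 over 8 arrays and −0.04 over 6. The group difference in Tsc22d3 was 0.07 (−0.33 to 0.47, exact permutation p = 0.696).

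Hsd11b1, the enzyme that regenerates active glucocorticoid inside the cell, ran the other way. It read 7.37, 6.59 and 6.89 log2 across WT replicates 1 to 3. Its KO-labelled values were 6.57, 7.30, 6.63, 7.24 and 7.38 for replicates 1 to 5. Abhd15 KO replicate 1 and WT replicate 2 were lowest, Abhd15 KO replicate 3 was close to them, and the groups overlapped. Its r with Zbtb16 was −0.75 (rho −0.67), lower than in all but 4.20% of the tested genes, and −0.43 without the pair. The group difference was 0.08 (−0.48 to 0.63, exact permutation p = 0.893).

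**Figure D2:**
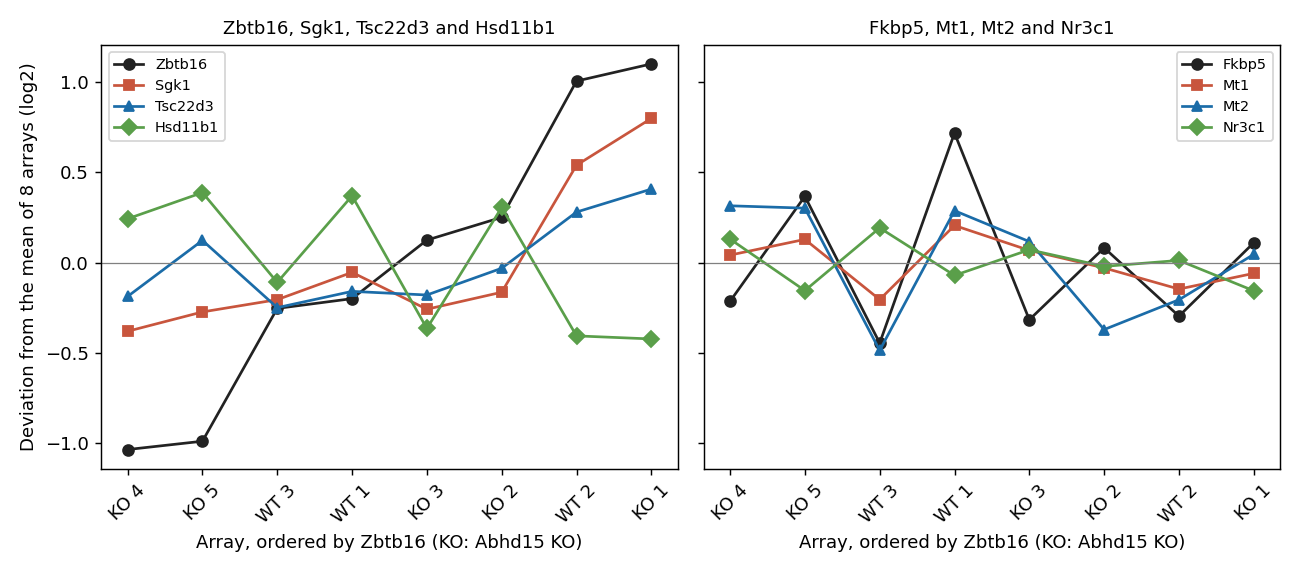
Deviation of each gene from its mean over the 8 arrays (y axis, log2) with the arrays ordered from the lowest to the highest Zbtb16 level (x axis); each line is 1 gene. On the left Sgk1 and Tsc22d3 end high and Hsd11b1 low with Zbtb16 (r = 0.87, 0.64 and −0.75), and on the right Fkbp5, Mt1 and Mt2 peak in WT replicate 1 or Abhd15 KO replicates 4 and 5, with no rise along the Zbtb16 order.

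Fkbp5, a co-chaperone that lowers the receptor's affinity for its hormone and is among the most widely used target genes, did not follow Zbtb16. It read 6.78, 5.77 and 5.62 log2 across WT replicates 1 to 3. The KO-labelled mice gave 6.18, 6.15, 5.75, 5.85 and 6.43 for replicates 1 to 5. WT replicate 1 and Abhd15 KO replicate 5 were highest, WT replicate 2 was among the low arrays, and WT alone spanned the values of the other group. The range of 1.16 log2 is a 2.24-fold difference, exceeded by 14.1% of the tested genes. Fkbp5 had an r of −0.17 and a rho of 0.00 with Zbtb16, and −0.10 without the pair. The group difference was 0.01 (−0.59 to 0.61, exact permutation p = 0.964), and it turned to −0.16 without the pair.

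Mt1 and Mt2 encode metallothioneins, small cysteine-rich proteins that bind zinc and copper and are induced by metals, glucocorticoids and inflammation. Mt1 read 10.90, 10.55 and 10.49 log2 across WT replicates 1 to 3. Under the KO label the values were 10.64, 10.67, 10.76, 10.74 and 10.83 for replicates 1 to 5. Mt2 gave 11.50, 11.01 and 10.73 for WT against 11.26, 10.84, 11.33, 11.53 and 11.51 for KO-labelled mice, in the same order. In both genes WT replicate 3 was lowest, WT replicate 1 and Abhd15 KO replicate 5 were high, and the groups overlapped. The metallothioneins had an r of 0.84 with each other (0.87 without the pair), and whether these closely similar genes share probe signal was not tested. With Zbtb16 their r was −0.48 for Mt1 and −0.45 for Mt2 (−0.22 and −0.59 without the pair).

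The range over the arrays was 0.41 log2 in Mt1, narrower than in 81.0% of the tested genes, and 0.80 in Mt2. KO-labelled minus WT was 0.08 for Mt1 (−0.20 to 0.35), with an exact permutation p of 0.446. For Mt2 it was 0.22 (−0.25 to 0.69), with an exact permutation p of 0.393. The spread of Mt1 inside WT (SD 0.22) was larger than inside the other group (SD 0.08).

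The 250 bases before the Mt2 and Mt1 starts are shown because these 2 genes ran together. Capitals mark the core of the metal response element, searched on both strands as TGCACNC (found in 10.4% of all windows) and TGCGCNC (12.5%). The element is known as the binding sequence of the zinc-sensing factor MTF-1. Mt2 (GRCm38.p6, plus strand, chr8:94172368-94172617) has 3 matches, and Mt1 (plus strand, chr8:94178839-94179088) has 1, which lies 23 to 17 bases before the start.
Mt2: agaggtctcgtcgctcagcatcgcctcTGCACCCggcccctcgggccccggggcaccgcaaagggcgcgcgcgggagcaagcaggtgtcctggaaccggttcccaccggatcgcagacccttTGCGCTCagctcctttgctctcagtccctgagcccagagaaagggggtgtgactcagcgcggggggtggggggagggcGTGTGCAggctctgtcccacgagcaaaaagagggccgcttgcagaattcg
Mt1: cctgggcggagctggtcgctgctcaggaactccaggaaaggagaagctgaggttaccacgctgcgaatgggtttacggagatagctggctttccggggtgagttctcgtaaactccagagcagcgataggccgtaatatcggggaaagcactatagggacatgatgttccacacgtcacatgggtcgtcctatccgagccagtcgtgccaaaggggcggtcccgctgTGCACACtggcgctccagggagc
Neither window holds AGAACA on either strand. No match says only that these letters are not in this window. The counts of metal elements likewise hold for these windows alone, 1 for each gene. Whether transcription in these mice began at the listed starts was not tested.

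Nr3c1, the gene of the receptor itself, varied least of the 8. It read 7.91, 7.997 and 8.18 log2 across WT replicates 1 to 3. Its KO-labelled values were 7.83, 7.96, 8.06, 8.12 and 7.83 for replicates 1 to 5. WT replicate 3 was highest, Abhd15 KO replicates 1 and 5 were lowest, and the groups overlapped. The range was 0.35 log2, and 87.8% of the tested genes had a wider one. Nr3c1 had an r of −0.24 with Zbtb16 (rho −0.43) and 0.11 without the pair. The group difference was −0.07 (−0.34 to 0.20, exact permutation p = 0.464).

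After these values were seen, the genes were also set against Fkbp5. Mt1 had an r of 0.76 with Fkbp5, Hsd11b1 0.61, Mt2 0.53, Tsc22d3 0.15 and Sgk1 0.03, while Nr3c1 had −0.76. Thus 3 of the 7 others were above 0.5, as were 11.4% of all other tested genes. Only 1.38% of the tested genes had a lower r with Fkbp5 than Nr3c1 had. Without WT replicate 2 and Abhd15 KO replicate 1 the values were 0.78 for Mt1, 0.76 for Hsd11b1, 0.59 for Sgk1, 0.52 for Tsc22d3, 0.49 for Mt2 and −0.86 for Nr3c1. In those 6 arrays 4 of the 7 were above 0.5, beside 17.1% of all other tested genes, and Sgk1 and Tsc22d3 were among them. The low r of Sgk1 with Fkbp5 over 8 arrays thus rested on that pair, since leaving out any single array gave −0.09 to 0.22. That of Tsc22d3 did not rest on the pair alone. Its r was 0.51 without WT replicate 1 only, and its rho with Fkbp5 over the 8 arrays was 0.50. Leaving out each array in turn gave 0.58 to 0.89 for Mt1 and −0.89 to −0.68 for Nr3c1. Nr3c1 also had an r of −0.70 with Tsc22d3, and −0.85 without the pair. Muscle and endothelial markers were spread along Fkbp5 too: all 10 muscle and all 6 endothelial markers had an r above 0 with it, and the list means had r = 0.43 and 0.60. The median r of single markers over the 8 arrays was 0.40 and 0.50, against 0.03 over all other tested genes. The muscle mean lay between 5.94 and 8.79 in WT and between 5.13 and 8.02 in the KO-labelled arrays, the endothelial mean between 7.09 and 7.49 and between 7.23 and 7.63. The part of these cell types in the Fkbp5 pattern was not tested.

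Seen as a set, 2 of the 7 other members had an r above 0.5 with Zbtb16, where 21.0% of all other tested genes did. Without the pair 1 of the 7, Sgk1, was above 0.5, beside 20.6%. The median r of the 7 was −0.24, against 0.04 over all other tested genes. The pair of arrays that stood apart was the top pair in 3 of the 8 members, beside 9.60% of all tested genes, and the bottom pair in 1, beside 7.65%. These counts read the same values by which the genes were chosen and support nothing further. With limma, 0 of 8 members passed an adjusted p of 0.05 between the genotypes, as did 0% of all tested genes, and each member had an adjusted p of 0.9997. At an unadjusted p under 0.05 there were also 0 members (3.99% of all tested genes). The groups overlapped in all 8 members, while 2.77% of the tested genes had groups apart. In the set 5 genes were higher and 3 lower in the KO-labelled arrays, with a median of 0.04 log2, against 0.01 over all tested genes. The intervals show what 3 and 5 mice could resolve: they span −1.43 to 0.84 log2 for Zbtb16 but only −0.34 to 0.20 for Nr3c1.

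**Figure D3:**
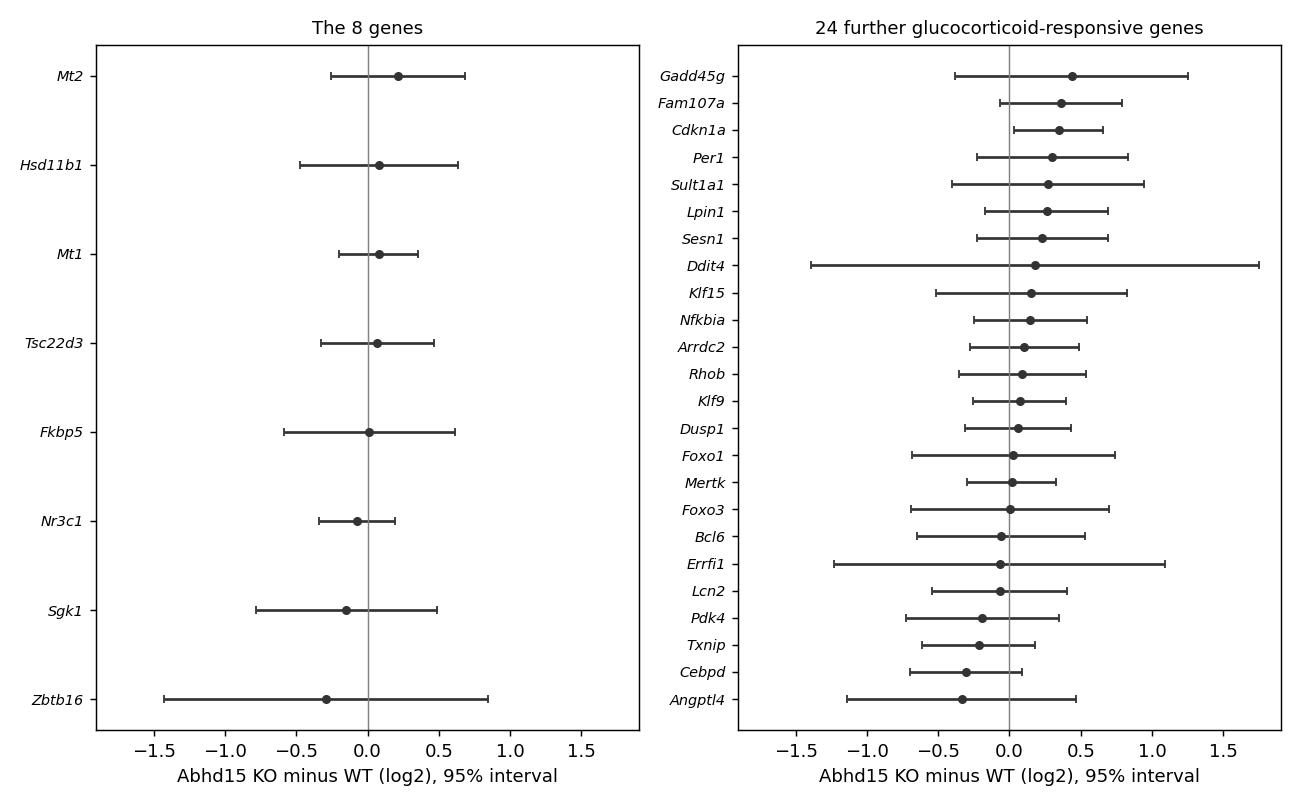
Difference in expression, Abhd15 KO minus WT (x axis, log2), for the 8 genes (left) and 24 further glucocorticoid-responsive genes (right); points are limma estimates from 3 WT and 5 Abhd15 KO arrays and bars their 95% confidence intervals, not adjusted for the number of genes. All 8 intervals on the left cross 0, and on the right 1 of 24 (Cdkn1a) does not, beside 3.99% of all tested genes.

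The genes whose pattern was most like Zbtb16 over the 8 arrays were S100a11 (r = 0.98), a calcium-binding protein, Phf1 (0.97), a Polycomb partner, Ankrd27 (0.97), an endosomal trafficking factor, Ldhd (0.97), the D-lactate dehydrogenase, and Garre1 (0.97). S100a11 read 8.71 in WT replicate 2 and in Abhd15 KO replicate 1, 7.85 and 7.96 in Abhd15 KO replicates 4 and 5, and 8.12 to 8.38 in the other 4, so its high and its low arrays were those of Zbtb16 over a narrower range. Without the pair the r of these 5 lay between 0.92 and 0.94. The most opposite were Zdhhc23 (−0.98), a palmitoyltransferase, Rpp25l (−0.97), Slc22a4 (−0.97), the ergothioneine and carnitine transporter, Parp9 (−0.96), and Atp6v0e (−0.96), a subunit of the vacuolar proton pump. They were picked as the extremes of 13222 genes, so their high r follows from the choice. None of the members was among them.

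The 24 further glucocorticoid-responsive genes, listed with earlier results of these arrays known, were all measured. Counts over this list are therefore a description as well. None passed the adjusted threshold in limma in either direction, and 17 read higher and 7 lower in the KO-labelled arrays, with a median difference of 0.08. Of all 13223 tested genes 6837 read higher, with a median difference of 0.01. Cdkn1a, a brake of the cell cycle, had the lowest unadjusted p. Its values in replicate order were 10.32, 10.07 and 10.29 for WT, then 10.68, 10.57, 10.41, 10.37 and 10.84 for KO-labelled mice. The groups lay apart by a narrow margin, 0.35 higher with the label (0.04 to 0.66, exact permutation p = 0.0357), and the adjusted p from limma was 0.9997. Of all tested genes 2.77% had groups apart, and 3.99% had an unadjusted limma p under 0.05. Fam107a differed by 0.36 (−0.06 to 0.79) and Cebpd, an adipogenic transcription factor, by −0.31 (−0.70 to 0.09). Cebpd had a mean of 3.26 in WT and of 2.955, close to the dim limit, in the KO-labelled arrays. Lpin1, a phosphatidate phosphatase, differed by 0.26 (−0.17 to 0.69), and the clock gene Per1 by 0.30 (−0.23 to 0.83).

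Along Zbtb16 these genes divided. Of the 24, 18 had an r above 0 with it, 12 had one above 0.5 (21.0% of all other tested genes did), and the median was 0.51. Among all 13222 other tested genes 6993 had an r above 0, and the median was 0.04. Without the pair 4 were above 0.5 (Klf15, Dusp1, Angptl4 and Arrdc2), beside 20.6%, and the median was 0.11. WT replicate 2 and Abhd15 KO replicate 1 were the top pair in 8 of them (Per1, Klf9, Cebpd, Errfi1, Pdk4, Angptl4, Txnip and Foxo1) and the bottom pair in 2 (Lpin1 and Sult1a1). They were the top pair in 9.60% and the bottom pair in 7.65% of all tested genes. Cebpd read 3.42 and 3.47 in that pair and 2.78 to 3.29 elsewhere, in part under the dim limit. Errfi1, an inhibitor of the EGF receptor, read 7.13 and 7.47 in that pair and 5.35 to 5.84 in the other 6 arrays. Angptl4, a fasting-induced inhibitor of lipoprotein lipase, read 9.76 and 9.24 there and 7.90 to 8.58 elsewhere, with an r of 0.84 with Zbtb16 and 0.56 without the pair. Sult1a1, a sulfotransferase, was the clearest opposite, with an r of −0.93 and −0.88 without the pair. Klf15 had an r of 0.69 with Zbtb16 and −0.73 with Fkbp5, and 0.52 and −0.82 without the pair.

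In the same pair of arrays Bhlhe41, Kit, Mid1ip1 and Nr4a2 were lowest, like Angptl8, while Fos and Egr1 peaked. Fos read 5.64 and 4.96 there, with 2.58 to 3.64 elsewhere, and Egr1 read 6.58 and 5.40, with 3.21 to 4.80 elsewhere. The lowest Fos values were under the dim limit. The pair was on top in 9.60% of all tested genes. It was also on top in 4 of 8 macrophage markers (Adgre1, Csf1r, C1qa and C1qb) and 4 of 6 fibroblast markers (Col1a1, Col1a2, Lum and Dpt). It was not in the macrophage markers Cd68, Cd14, Mpeg1 and Lyz2, whose r with Zbtb16 was 0.09, 0.29, −0.01 and −0.05. Nor was it in the fibroblast markers Pdgfra (−0.14) and Dcn (−0.64). The macrophage mean lay between 5.39 and 6.12 in WT and between 5.01 and 5.90 in the KO-labelled arrays, the fibroblast mean between 7.26 and 7.96 and between 7.11 and 7.84. No macrophage or fibroblast marker was below the dim filter. In the other 6 arrays both means ran against Zbtb16 (r = −0.72 and −0.94), as did the T, NK and innate lymphoid mean (−0.92), the muscle mean (−0.55) and the brown adipocyte mean (−0.54), while the endothelial mean had 0.53. The part of these cells in the Zbtb16 pattern was not tested.

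Along Fkbp5, 18 of the 24 had an r above 0 and 2 one above 0.5, beside 11.4% of all other tested genes. Those 2 were Ddit4, an inhibitor of mTORC1 signalling, and Arrdc2. The median r of the 24 with Fkbp5 was 0.23, against 0.03 over all other tested genes. Without the pair 8 were above 0.5, beside 17.1%: Txnip (0.88), Ddit4 (0.83), Errfi1 (0.79), Arrdc2 (0.69), Pdk4 (0.62), Klf9 (0.57), Sult1a1 (0.52) and Gadd45g (0.51). Over the 8 arrays Ddit4 had an r of 0.72 with Fkbp5 and 0.18 with Zbtb16. It read 6.13, 5.71 and 4.54 log2 across WT replicates 1 to 3. The KO-labelled mice gave 6.75, 5.55, 4.35, 4.35 and 7.19 for replicates 1 to 5. Its range of 2.85 log2 was the widest of the 24, and its groups overlapped (difference 0.18, −1.39 to 1.75). Gadd45g, a stress-induced growth arrest gene, had an r of 0.44 with Fkbp5 and 0.06 with Zbtb16.

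**Figure D4:**
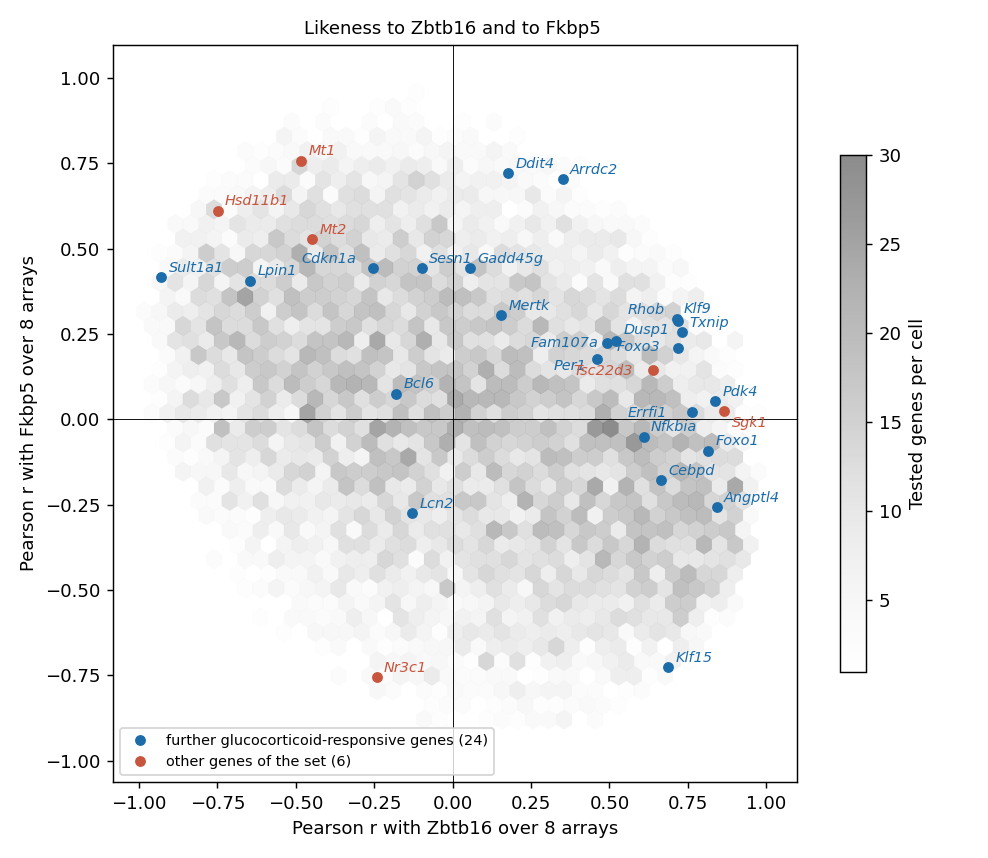
Pearson r with Zbtb16 (x axis) against Pearson r with Fkbp5 (y axis) over the 8 arrays; grey cells count all tested genes, and points are 6 other genes of the set and 24 further glucocorticoid-responsive genes. Sgk1 and Tsc22d3 lie to the right at 0.03 and 0.15 with Fkbp5 (0.59 and 0.52 without WT replicate 2 and Abhd15 KO replicate 1), Mt1, Mt2 and Hsd11b1 lie at the upper left, and Nr3c1 lies at the bottom.

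The remaining parts of the pathway showed no called difference. Of the supply and breakdown genes 6 of 8 were tested, 5 higher and 1 lower in the KO-labelled arrays (median 0.04). Hsd11b2, which inactivates the steroid, had a WT mean of 2.81, under the dim limit, and Serpina6, the steroid-binding globulin of plasma, did not pass the filter. Nr3c2, the mineralocorticoid receptor, read 4.92 to 5.30 in WT and 4.41 to 5.59 in the KO-labelled arrays, lowest in Abhd15 KO replicate 1. Of the receptor chaperones and coregulators 13 of 16 were tested, 8 higher and 5 lower (median 0.01). Hsp90aa1, the chaperone that holds the receptor ready for hormone, read 6.85, 6.99 and 7.01 in WT and 7.07 to 7.13 in the KO-labelled arrays. Its groups did not overlap, which held for 2.77% of all tested genes. KO-labelled minus WT was 0.16 (−0.06 to 0.37). The exact permutation p was 0.0179, the smallest that 3 against 5 arrays can give, while the limma p was 0.135, adjusted to 0.9997. Ncoa3, a coactivator, differed by 0.11 (−0.13 to 0.36).

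Among metal-handling genes 6 of 9 were tested, 4 higher and 2 lower (median 0.03). Slc39a14, a zinc importer, differed by 0.26 (−0.22 to 0.74), and Mt3, the metallothionein of brain, lay close to the dim limit with means of 2.97 and 2.85. Among acute phase genes 7 of 8 were tested, 3 higher and 4 lower (median −0.04). Hp, the haemoglobin-binding haptoglobin, had an r of 0.70 with Zbtb16 and 0.50 without the pair, and Orm1, an acute phase glycoprotein, 0.78 and 0.32. Cebpb differed by 0.37 (−0.05 to 0.79). Across these 4 lists limma called 0 genes at the adjusted threshold, and 0 had an unadjusted p under 0.05.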

How the data were processed

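Per the labels, RNA of 8 samples was hybridised to Affymetrix Mouse Gene 2.0 ST arrays. The authors deposited log2 values, 1 per probe set and array, made with RMA and the oligo package per the submitters' processing notes; the design text also names Expression Console, so the program is not settled. RMA equalises the arrays' distributions, which would hide a shift common to most genes. Array medians were 3.00 to 3.04 and correlations between arrays 0.964 to 0.975. Arrays give no read depth; their number limits the precision.

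Of 41345 probe sets, 23521 had 1 gene symbol, 1814 several and 16010 none here; 23328 matched a RefSeq entry (GRCm38.p6). The highest-mean probe set stood for each of 22180 genes, and the 13223 above 2.88 log2 (95th percentile of 1400 receptor probe sets) in at least 3 arrays were tested with limma 3.58.1 in R 4.3.3 (lmFit, eBayes, 1 group term) and Benjamini-Hochberg adjustment at 0.05. For single genes an exact permutation test (two-sided, on the absolute difference) was used, whose smallest p is 0.0179. The fit was tested on simulated data. Intervals are 95% and unadjusted.

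The members and all lists were chosen with earlier results of these data known. The genes named are the members, Abhd15, the 5 genes of highest and of lowest r with Zbtb16 (without predicted models and small RNAs), and from each list those of lowest unadjusted p and widest range; Arrdc2, Klf15 and other genes named by a count or extreme were added after their values were seen. Alternatives were a replicate block, other filters, normalizations, fits and probe set rules, and leaving out arrays; likeness to Fkbp5, and counts without the pair of arrays that stood apart, were added after the data were seen. Replicate numbers did not pair the mice.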

Additional observations from a re-analysis of the deposited data

Results flagged for a closer look

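Within the 5 arrays labelled Abhd15 KO, 9 of 64 genes examined had a sample far from the others, by Dixon's ratio above 0.71, and in each case it was Abhd15 KO replicate 1. Chance gives such a result in about 1 group in 20, and genes that vary together are not separate cases. Many of the 64 genes were picked for a wide range, for their r with Zbtb16 or because they set arrays apart. The count of 9 therefore cannot be weighed against that rate. Among the 8 members it was Sgk1, which read 6.07 there and 4.89 to 5.10 in the other 4. Among the further glucocorticoid-responsive genes it was high in Errfi1 (7.47, against 5.54 to 5.84), Cebpd (3.47, against 2.78 to 2.90) and Txnip (11.28, against 10.70 to 10.84). Among the genes already listed because they set arrays apart it was low in Angptl8 (7.90), Bhlhe41 (4.85), Kit (5.31), Mid1ip1 (4.93) and Nr4a2 (5.74). The Cebpd values of the other KO-labelled arrays lay close to the dim limit, most of them under it. WT has 3 arrays and could not be examined this way.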

How the results depend on the processing

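Under all 17 alternatives limma called 0 of the tested genes (422 to 1019 at an unadjusted p under 0.05), and the median difference of the 8 members stayed within 0.11 log2, its spread between mice, of 0.04. No member passed the threshold in any of them, with an adjusted p between 0.94 and 1.00. Mt1 and Mt2 kept their direction throughout, but without WT replicate 3 their differences fell to 0.0002 and 0.0405. The median of the 8 members ran from −0.0248 to 0.11 when 1 array was left out. With the replicate block, Zbtb16 turned to 0.31, Sgk1 to 0.0320, Fkbp5 to −0.0333 and Hsd11b1 to −0.11; same-numbered arrays shared only a number, with correlations of their deviations of −0.26, −0.10 and 0.02. With median centring Fkbp5 was −0.0007, and without both WT replicate 2 and Abhd15 KO replicate 1 it was −0.16. Leaving out each array in turn gave −0.60 to 0.12 for Zbtb16, −0.20 to 0.38 for Fkbp5, −0.0339 to 0.23 for Tsc22d3, −0.36 to 0.0741 for Sgk1, −0.13 to 0.0033 for Nr3c1 and −0.10 to 0.29 for Hsd11b1. The turns of Zbtb16 and Sgk1 came without WT replicate 2 (0.12 and 0.0741), and for none of the turns was the cause tested. Signal over background did not limit the members, all of which were above the dim limit in every array.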
